A study of Mus musculus with 7 samples.

Results

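The Zfp zinc finger genes were taken as all genes on the array whose symbol is Zfp followed by digits alone, leaving out Zfp42, and kept where they lay above background on at least 1 array. A gene lay above background where the detection p of its probe, which compares it with negative control beads, was under 0.01. The array carried 258 such genes, of which 176 were kept, among 9213 genes tested and 16593 genes with 1 symbol on the array, and the rest were above background on no array. The rule used symbols and detection alone, and no difference between the lines, but it was set with earlier results of these data known.

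Gene expression had been measured in 7 mouse cell lines, 1 Illumina bead array each. Of these, 6 were epiblast stem cell (EpiSC) lines, named C1a1, E3, E5, T9, OG2.1 and OG2.2, and R1 was an embryonic stem cell (ESC) line. EpiSCs resemble the post-implantation epiblast, the primed state of pluripotency, and ESCs the earlier epiblast within the blastocyst, the naive state. For each sample the labels gave a line name, under a tag that reads spot14 gfp, and a cell type, but no genotype, strain, passage, culture medium or feeder layer. Each line was 1 sample, so the p-values rest on how far lines differ, whether by biology, culture or array. The only ESC line was assumed to vary as the EpiSC lines do, and cell type, line, culture and array cannot be told apart in a difference from R1.

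A zinc finger of the classical type is a short loop of protein folded around a zinc ion by 2 cysteines and 2 histidines, and arrays of such fingers read DNA sequence. Many mouse genes with long finger arrays also encode a KRAB domain, which recruits the corepressor Trim28 and with it the methyltransferase Setdb1 and heterochromatin protein 1, and many of them silence retroelements in the early embryo. The name Zfp also covers proteins of other kinds, among them RNA-binding proteins and ubiquitin ligases. KRAB genes tend to lie in clusters of young, similar copies.

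Of the 258 genes on the array, 141 were above background in OG2.1, 151 in OG2.2, 144 in E3, 143 in E5, 143 in T9 and 145 in C1a1, against 137 in R1. Among the 176 kept genes, 109 (61.9%) were above background on all 7 arrays, beside 67.5% of all genes tested. A further 40 (22.7%) were above background in at least 1 EpiSC line and not in R1, beside 19.8% of all genes. For 13 of these 40 all 6 EpiSC lines were above background (7.39%, beside 4.56% of all genes). For 6 (3.41%) the reverse held, with a level above background in R1 and in no EpiSC line, beside 3.78% of all genes. All 6 naive markers tested were lower and 5 of 6 primed markers higher in the EpiSC lines than in R1, while the sixth, Otx2, had a difference of 1.15 (adjusted p = 0.0967). Of 11 fibroblast and feeder markers, 6 were tested and 2 of these (Thy1 and Mmp2) were higher in the EpiSC lines, beside 7.1% of all genes. The other 4 were not called, with differences of 2.30 (Dcn), 0.75 (Col1a1), 0.37 (Fstl1) and -1.37 (Loxl1). Dcn ran from 4.69 (E3) to 9.30 (E5), and R1 lay above all 6 EpiSC lines for Loxl1. The summed level of the 6 tested markers ran from 10.38 (E3) to 11.82 (OG2.1 and E5) on the log2 scale in the EpiSC lines and was 10.10 in R1. Col1a2, Col3a1, Lum, Postn and S100a4 were above background on no array. The part of such cells in the results below was not tested.

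The first comparison set the 6 EpiSC lines against R1. Levels are normalized log2 intensities, so a difference of 1 is a factor of 2, and a gene was called where the adjusted p of limma's moderated test across all 9213 genes was under 0.05. Of the 176 genes, 16 were higher in the EpiSC lines and 14 lower. These 30 calls were 17.0% of the Zfp genes, beside 15.2% of all genes. The higher calls made up 9.09%, beside 7.1% of all genes, and the lower calls 7.95%, beside 8.11%. Among the 130 Zfp genes above background in R1 and in at least 1 EpiSC line, 8 were higher (6.15%, beside 5.64% of all such genes) and 9 lower (6.92%, beside 6.52%). The median difference was 0.16 over the Zfp genes and 0.05 over all genes, with 100 positive and 76 negative. R1 lay below all 6 EpiSC lines for 58 genes (33.0%, beside 29.7% of all genes) and above all 6 for 45 (25.6%, beside 26.1%). In whole-culture RNA, a lower level can come from fewer cells that use a gene or from less RNA per cell, and these cannot be told apart.

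**Figure D1:**
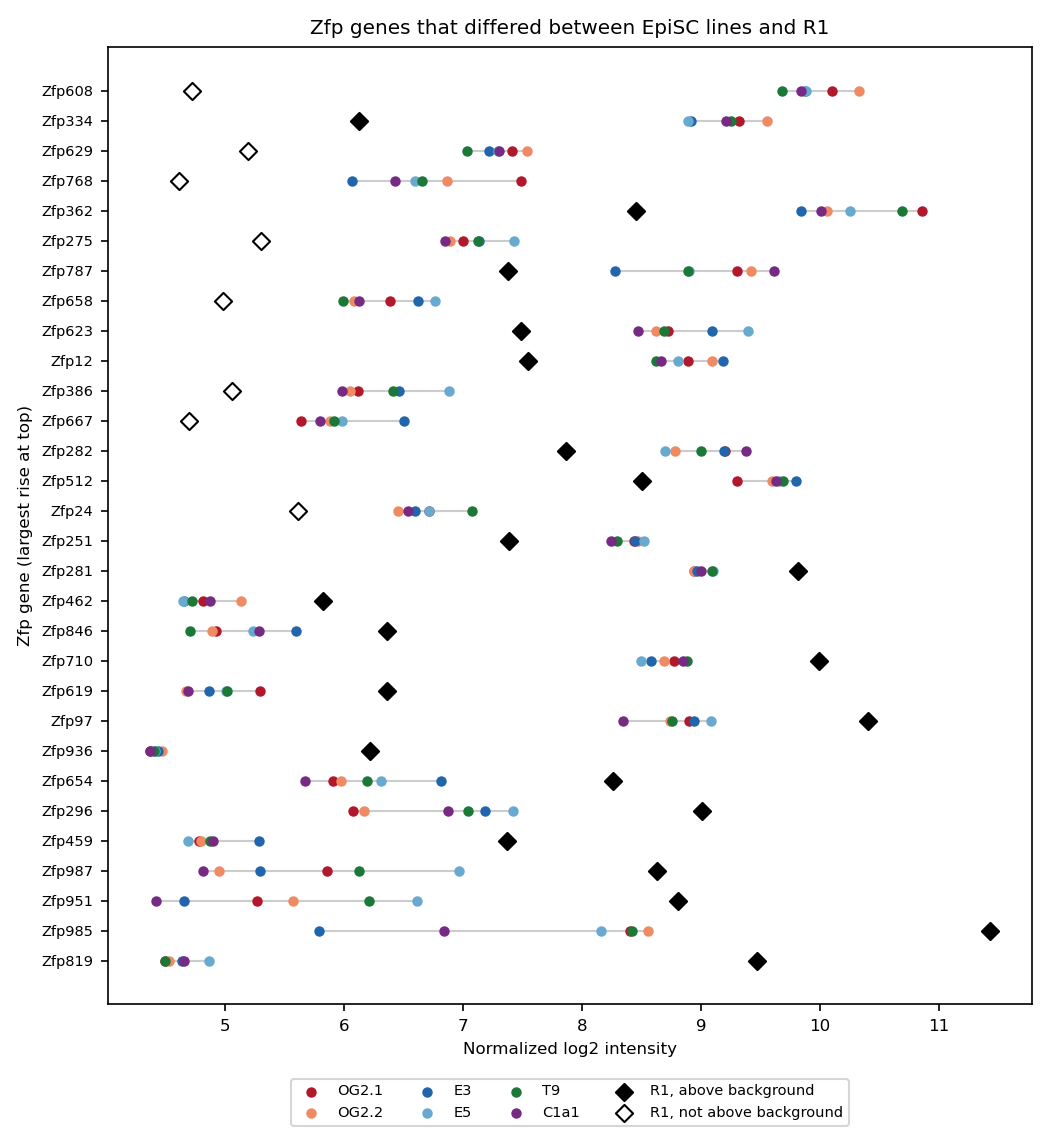
Normalized log2 intensity of the 30 called Zfp genes in every line; circles are the 6 EpiSC lines, the grey bar spans their range, and the diamond is the R1 array, open where R1 was not above background. The rows run from Zfp608 at the top to Zfp819 at the bottom, and in none of them does R1 fall within the EpiSC range.

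Zfp608 was the most raised of them all. It encodes a large zinc finger protein described in mouse thymocytes as a repressor of the Rag recombinase genes. Its level in the EpiSC lines was 9.68 at the lowest (T9), 9.88 at the median and 10.33 at the highest (OG2.2), against 4.72 in R1, where it was not above background. The 6 lines therefore lay close together and far from R1, and Zfp608 was at least 19.1-fold higher in the EpiSC lines (adjusted p = 2.21e-05 by limma). Zfp609, its closest relative, which works with the cohesin loader Nipbl in the developing cortex, had a median of 6.20 in the EpiSC lines and 6.08 in R1. Its mean difference was -0.06 (SE 0.45, adjusted p = 0.95) and turned positive under 3 alternatives.

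Zfp334, a KRAB gene, ran from 8.89 (E5) through a median of 9.23 to 9.55 (OG2.2) in the EpiSC lines and was 6.12 in R1. It was above background on every array, so its difference of 3.07 (SE 0.29, adjusted p = 0.000421 by limma) rests on measured levels on both sides. The promoter is shown as that of the largest rise with measured levels on both sides. It lies at chr2:165388210-165388509 on the minus strand in build GRCm38.p6, from 250 bases before to 50 after the first RefSeq transcription start. Capitals mark GCATGCGC on either strand, the core of the binding motif of Nrf1, a factor of CpG-rich promoters. It was looked for after the sequences had been seen, and 8.51% of 141 Zfp promoters and 5.61% of 7492 promoters of genes tested hold it.

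Zfp334: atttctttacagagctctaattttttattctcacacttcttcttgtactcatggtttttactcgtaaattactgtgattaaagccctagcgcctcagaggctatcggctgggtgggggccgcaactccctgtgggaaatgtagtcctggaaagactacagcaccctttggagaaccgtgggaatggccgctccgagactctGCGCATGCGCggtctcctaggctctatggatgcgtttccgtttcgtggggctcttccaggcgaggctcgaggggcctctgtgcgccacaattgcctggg

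Zfp629 and Zfp768, the next by size, were not above background in R1. Zfp629 ran from 7.04 (T9) to 7.54 (OG2.2) in the EpiSC lines, with a median of 7.30, against 5.19 in R1, and was at least 3.05-fold higher (adjusted p = 0.00119 by limma). Zfp768, whose human counterpart binds remnants of MIR retroelements, ran from 6.07 (E3) to 7.48 (OG2.1) with a median of 6.62, against 4.61 in R1. It was at least 1.98-fold higher (adjusted p = 0.0185), with all lines above R1 but spread over more than a unit, and the call ended without background correction (adjusted p = 0.0669, with 0.00686 to 0.0669 over the alternatives).

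Zfp362, related to the fly gene rotund, had its lowest level of 9.84 in E3, a median of 10.15 and its highest of 10.86 in OG2.1, against 8.45 in R1. The difference was 1.83 (SE 0.40, adjusted p = 0.0185 by limma). The X-linked Zfp275 ran from 6.84 (C1a1) to 7.43 (E5) in the EpiSC lines, median 7.06, and was 5.30 in R1, below background there, which put it at least 2.60-fold higher (adjusted p = 0.00404). Zfp12, a KRAB repressor, ran from 8.62 (T9) to 9.18 (E3), median 8.85, against 7.54 in R1, a difference of 1.33 (SE 0.28, adjusted p = 0.0154). In all 3 genes every EpiSC line was above R1, and no alternative setting tried ended these calls.

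The remaining 9 rises were smaller or less steady. Zfp787 ran from 8.28 (E3) to 9.62 (C1a1), median 9.10, against 7.38 in R1 (difference 1.69, adjusted p = 0.0425), and leaving out any EpiSC line but E3 ended the call, with adjusted p from 0.0154 to 0.101 over the 15 alternatives. Zfp623 (1.34), Zfp282 (1.18), Zfp512 (1.11) and Zfp251 (1.02) were above background on all 7 arrays, with adjusted p from 0.0182 to 0.0397. Zfp282, whose human counterpart represses the HTLV-1 promoter, and Zfp623 each lost the call without OG2.1, without E3 or without T9, and Zfp623 also without OG2.2. Zfp512 kept it under all 15 alternatives, and Zfp251 lost it only without both OG2 lines (adjusted p = 0.0575). The other 4 were not above background in R1, Zfp658 being at least 1.55-fold higher in the EpiSC lines, Zfp386 at least 1.54-fold, Zfp667, named Mipu1 in rat, at least 1.19-fold and Zfp24 at least 1.98-fold. Zfp24, a SCAN-type gene needed for myelination in mouse brain, had 6.45 to 7.07 in the EpiSC lines, against 5.61 in R1. Each of these 4 calls ended without at least 1 of the lines, Zfp658 without OG2.1 (adjusted p = 0.0531, with 0.0158 to 0.106 over the alternatives), Zfp667 without OG2.2, E5 or T9, Zfp24 without OG2.1, E3 or E5, and Zfp386 without OG2.1, OG2.2, E3 or T9. All 4 also ended without background correction.

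Among the kept genes the largest fall was that of Zfp819, although Zfp42, left out by the rule, had a difference of -7.87. Zfp819, a KRAB gene, is known in mouse ESCs for binding Trim28 and repressing endogenous retroviruses. Its level was 4.49 (OG2.1), 4.58 at the median and 4.86 (E5) at the highest in the EpiSC lines, against 9.47 in R1. No EpiSC line was above background, and Zfp819 was at least 15-fold lower in the EpiSC lines (adjusted p = 1.71e-05 by limma). Zfp819 was kept through R1 alone, so the spread behind this p is of EpiSC levels below background. The promoter of this largest fall lies at chr7:43606919-43607218 on the plus strand of GRCm38.p6. Capitals mark CACGTG, the palindromic E box read by Myc, Usf1 and related factors, held by 9.93% of Zfp promoters and 10.1% of all promoters of genes tested. The GCATGCGC marked in the Zfp334 promoter also occurs in that of Zfp819, where it is left in lower case.

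Zfp819: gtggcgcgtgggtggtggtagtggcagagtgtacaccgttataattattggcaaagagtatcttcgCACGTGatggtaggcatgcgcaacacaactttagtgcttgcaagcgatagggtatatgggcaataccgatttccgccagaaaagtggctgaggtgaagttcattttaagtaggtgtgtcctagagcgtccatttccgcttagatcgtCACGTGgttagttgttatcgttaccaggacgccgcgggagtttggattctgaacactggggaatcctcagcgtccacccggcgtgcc

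Beside Zfp819, 4 lowered genes were above background in R1 alone. The spread behind each of their p-values is likewise of EpiSC levels below background. Zfp459 ran from 4.69 (E5) to 5.28 (E3) in the EpiSC lines, median 4.83, against 7.36 in R1, at least 3.49-fold lower in the EpiSC lines (adjusted p = 0.000747 by limma). Zfp936 had 4.36 to 4.46 in the EpiSC lines and 6.21 in R1, and was at least 1.57-fold lower in the EpiSC lines (adjusted p = 0.000964 by limma). Its range was the narrowest of all Zfp genes, but over levels that were all below background. It therefore shows no agreement between lines, and the p rests on it. Zfp619 was at least 1.74-fold lower, with 4.67 to 5.29 in the EpiSC lines and 6.36 in R1 (adjusted p = 0.0122). The other 2 genes seen in R1 alone were Zfp462, described below, and Zfp286, which was not called (4.42 to 5.32 in the EpiSC lines, 6.10 in R1, adjusted p = 0.0585).

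A second set of lowered genes came from 1 stretch of distal chromosome 4, a cluster of young KRAB genes in mouse, brought together here after their values had been seen. Zfp985 had 6.84, 5.79, 8.16, 8.42, 8.40 and 8.55 in C1a1, E3, E5, T9, OG2.1 and OG2.2, against 11.43 in R1, a difference of -3.74 (SE 0.98, adjusted p = 0.0383 by limma). Zfp987 had 4.81, 5.29, 6.97, 6.12, 5.85 and 4.95 in the same order of lines, against 8.63 in R1, a difference of -2.97 (SE 0.72, adjusted p = 0.0293). Zfp979, the gene next to Zfp985, had 6.93, 8.04, 6.90, 8.57, 8.32 and 9.24, against 10.24 in R1, a difference of -2.24 (SE 0.81) that was not called (adjusted p = 0.108). R1 was the highest of the 7 arrays for all 3 genes, and C1a1 was the lowest or the second lowest EpiSC line for each. Zfp987 was above background in only 3 of 6 EpiSC lines, C1a1 not being among them. The rank of C1a1 for Zfp987, and part of its difference from R1, thus rest on levels below background. The Zfp985 call ended without C1a1 (adjusted p = 0.0584) and that of Zfp987 without E3 (adjusted p = 0.0519), against ranges over the alternatives of 0.0122 to 0.0789 and 0.0077 to 0.0738. Both calls also ended with the deposited log2 values and with no detection filter, and that of Zfp987 also without both OG2 lines. Zfp933, with 2 genes between it and Zfp979, had 5.67 to 6.73 in the EpiSC lines and 5.90 in R1, a difference of 0.26 (adjusted p = 0.722).

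The promoters of Zfp985, Zfp979 and Zfp987 are shown because they were nearly the same sequence. Pairwise they were 93.7% identical (Zfp985 and Zfp987, over 285 aligned bases), 90.5% (Zfp985 and Zfp979, over 284) and 88.6% (Zfp979 and Zfp987, over 290), against 60.2% to 61.8% with Zfp933. In GRCm38.p6 they lie at chr4:147553027-147553326 (plus strand), chr4:147642459-147642758 (minus strand) and chr4:146097062-146097361 (plus strand). Capitals mark the longest run that all 3 share, of 21 bases.

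Zfp985: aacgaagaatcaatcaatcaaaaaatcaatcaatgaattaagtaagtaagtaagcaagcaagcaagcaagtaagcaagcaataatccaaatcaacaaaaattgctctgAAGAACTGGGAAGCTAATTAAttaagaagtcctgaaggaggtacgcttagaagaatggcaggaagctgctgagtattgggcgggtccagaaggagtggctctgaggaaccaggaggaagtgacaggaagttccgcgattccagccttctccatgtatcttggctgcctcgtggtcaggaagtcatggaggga
Zfp979: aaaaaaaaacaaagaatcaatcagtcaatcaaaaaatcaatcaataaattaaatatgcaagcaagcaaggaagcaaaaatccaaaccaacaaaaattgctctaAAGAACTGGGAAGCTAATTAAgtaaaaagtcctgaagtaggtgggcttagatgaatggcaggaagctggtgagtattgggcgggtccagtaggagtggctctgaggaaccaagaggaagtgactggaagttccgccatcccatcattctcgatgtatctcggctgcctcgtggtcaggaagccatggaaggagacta
Zfp987: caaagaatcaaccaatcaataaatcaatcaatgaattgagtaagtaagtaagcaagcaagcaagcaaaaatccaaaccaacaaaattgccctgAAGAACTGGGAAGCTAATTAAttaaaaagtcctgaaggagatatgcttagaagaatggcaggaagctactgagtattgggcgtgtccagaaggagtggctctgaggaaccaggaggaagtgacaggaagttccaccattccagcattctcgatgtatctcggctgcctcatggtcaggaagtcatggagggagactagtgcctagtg

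The 21-base run occurred in 8 of 27025 RefSeq promoters of this length outside chromosome 18, those of Zfp985, Zfp979, Zfp987, Zfp534, Zfp600, Zfp980, Zfp988 and Rex2. Beside Zfp985, Zfp979 and Zfp987, only Rex2 among them was on the array under 1 of these symbols, and it was lower too. It had 4.37 to 4.67 in the EpiSC lines, none above background, and 6.60 in R1, at least 2.06-fold lower in the EpiSC lines (adjusted p = 0.000744 by limma). The p for Rex2 also rests on EpiSC levels below background. The probe sequences were not used here, so whether 1 probe reads several of these near-identical genes was not tested.

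Zfp951 differed in the same way and with a similar spread. It ran from 4.41 (C1a1) through a median of 5.42 to 6.61 (E5) in the EpiSC lines, 3 of them above background, against 8.81 in R1, a difference of -3.36 (SE 0.76, adjusted p = 0.0215 by limma) that was not called without both OG2 lines or with the deposited log2 values (0.0063 to 0.0929 over the alternatives). Zfp654 ran from 5.67 (C1a1) to 6.82 (E3), median 6.08, against 8.26 in R1 (difference -2.12, SE 0.39, adjusted p = 0.00967), and Zfp97 from 8.34 (C1a1) to 9.08 (E5), median 8.83, against 10.41 in R1 (difference -1.61, SE 0.30, adjusted p = 0.0091). Zfp710 was lower by a smaller amount, with 8.50 to 8.88 in the EpiSC lines and 9.99 in R1 (difference -1.28, SE 0.24, adjusted p = 0.00972). Zfp846 had 4.70 to 5.59, against 6.35 in R1 (difference -1.25, adjusted p = 0.0445), and its call ended on leaving out any line but E3, with adjusted p from 0.0263 to 0.106 over the alternatives. It also ended with the deposited log2 values, without background correction and with no detection filter. In every EpiSC line but E3 Zfp846 lay under the lowest signal above background on that array, so most of the levels behind its difference and p were below background.

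Genes linked to the pluripotency network formed a list of 8, of which 5 were tested, 3 of them lower (beside 8.11% of all genes) and 0 higher (beside 7.1%), with a median difference of -0.81 beside 0.05 for all genes. Zfp296, a partner of Klf4 in reprogramming, had 6.87, 7.19, 7.41, 7.04, 6.07 and 6.17 in C1a1, E3, E5, T9, OG2.1 and OG2.2, against 9.0 in R1, a difference of -2.21 (SE 0.51, adjusted p = 0.0235 by limma). A second probe of the gene gave -2.52 (SE 0.47, adjusted p = 0.0102). Both OG2 lines were the lowest, and R1 exceeded every EpiSC line. Zfp462, a partner of heterochromatin protein 1 that restrains lineage genes in mouse ESCs, had 4.65 to 5.13 in the EpiSC lines, none above background, and 5.82 in R1, at least 1.2-fold lower in the EpiSC lines (adjusted p = 0.0329). This call ended without OG2.1, E3 or T9 and without background correction (0.0222 to 0.139 over the alternatives).

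Zfp281, which binds Nanog and recruits the NuRD complex and is known to favour the primed state, had 8.94 (OG2.1), 8.98 at the median and 9.10 (E5) in the EpiSC lines, against 9.81 in R1. The lines lay within 0.17 of each other, and the difference was -0.81 (SE 0.21, adjusted p = 0.0385 by limma), a call that ended without any line but E5 (0.00912 to 0.0951 over the alternatives). Zfp148, its close relative, had 6.40 to 7.68, against 7.12 in R1, a difference of -0.11 (SE 0.47). Zfp207, a spindle assembly protein, had 9.58 to 10.07, against 9.88 in R1 (difference -0.08, SE 0.25), and neither was called (adjusted p = 0.898 and 0.872).

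Developmental genes formed a list of 12, of which 9 were tested, 2 of them, Zfp608 and Zfp24, being higher (beside 7.1% of all genes) and 0 lower (beside 8.11%), with a median difference of -0.06 beside 0.05 for all genes. Zfp521 and Zfp423, a related pair that bind Ebf transcription factors, stood apart by their spread between EpiSC lines and are described with it below. Zfp704 had 6.07 to 7.36, against 7.97 in R1, a difference of -1.27 (SE 0.42, adjusted p = 0.0804 by limma). Its second probe had 4.62 to 5.70, above background in 2 of 6 EpiSC lines, against 7.55 in R1, and was called (difference -2.22, SE 0.40, adjusted p = 0.00841). The gene was also called with the mean of its probes (-1.75, adjusted p = 0.0181) and, on the brightest probe, without OG2.1 (-1.40, adjusted p = 0.0365), with 0.0181 to 0.122 over the alternatives. Zfp750, a regulator of epidermal differentiation, had 5.82 to 6.42, against 6.80 in R1 (difference -0.68, adjusted p = 0.193), and Zfp335, required in mouse neural progenitors, had 5.18 to 5.93, against 5.96 in R1 (difference -0.45, adjusted p = 0.398).

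The list of genes for RNA and protein handling had 10 of 11 members tested, and limma called 0, with differences from -0.80 to 0.47. Zfp638, an RNA-binding nuclear protein, had 8.46 to 9.25 in the EpiSC lines and 9.79 in R1 (difference -0.80, adjusted p = 0.137). Zfp598, the ubiquitin ligase of collided ribosomes, had 6.12 to 7.16, against 7.30 in R1 (difference -0.71, adjusted p = 0.337). Zfp36, or tristetraprolin, which speeds the decay of AU-rich messages, was 6.34 in OG2.1, 7.46 in OG2.2 and 7.67 to 8.66 in the other 4 EpiSC lines, against 7.58 in R1. Of 6 listed genes that act on imprints or retroelements, only Zfp809 was tested, which silences murine leukaemia proviruses through Trim28. It had 5.46 (OG2.1) to 7.41 (E5), median 6.53, against 8.06 in R1, and its difference of -1.60 (SE 0.62) was not called (adjusted p = 0.129), although R1 lay above all 6 lines.

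The partners through which KRAB proteins act were read as a list of 31, 24 of them tested, with 2 higher (beside 7.1% of all genes), 2 lower (beside 8.11%) and a median difference of 0.15 beside 0.05 for all genes. The list thus held called genes at about the share found over the array. Trim28 itself had 12.87 (OG2.2) to 13.32 (E5) in the EpiSC lines and 13.81 in R1, a difference of -0.69 (SE 0.25, adjusted p = 0.107 by limma). R1 lay above all 6 lines, and Trim28 was called with a trended and robust variance (adjusted p = 0.0361, with 0.0361 to 0.176 over the alternatives). Setdb1 had a difference of -0.44 (adjusted p = 0.381). Cbx1, which encodes the beta form of heterochromatin protein 1, had 6.61 to 8.09 in the EpiSC lines and 5.43 in R1, not above background there, and was at least 2.88-fold higher (adjusted p = 0.0436). Pphln1, the periphilin subunit of the HUSH silencing complex, was the other rise (5.29 to 5.78, against 4.36 in R1, adjusted p = 0.0186). It was above background in 3 of 6 EpiSC lines and not in R1, and no fold could be bounded. The falls were the chromatin remodeller Smarcad1, a Trim28 partner (9.24 to 9.91, against 10.70 in R1, difference -1.14, adjusted p = 0.0415), and Atf7ip, which stabilises Setdb1 (9.15 to 9.78, against 10.49 in R1, difference -1.05, adjusted p = 0.048). Cbx1, Smarcad1 and Atf7ip each lost the call without at least 3 of the 6 lines, with adjusted p up to 0.116, 0.0808 and 0.0885 over the alternatives.

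**Figure D2:**
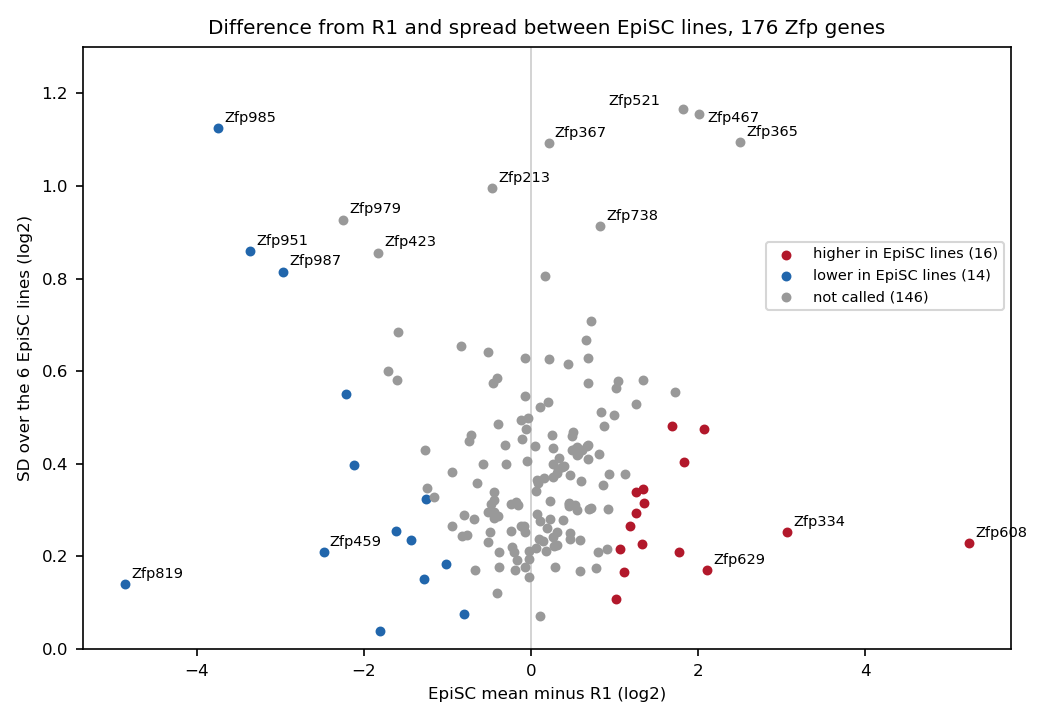
Each point is 1 of the 176 Zfp genes: the horizontal axis is the EpiSC mean minus R1 (log2) and the vertical axis the SD over the 6 EpiSC lines (log2), with called genes in red (16 higher) and blue (14 lower). Zfp608 has the largest rise with an SD of 0.23 and Zfp819 the largest fall with an SD of 0.14, which is taken over EpiSC levels that were all below background, whereas Zfp985 has a large difference with an SD of 1.13.

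The next question, raised by the series title, was how far the EpiSC lines differed from each other. The SD over the 6 lines had a median of 0.34 over the Zfp genes and 0.33 over all genes. It was above 1 for 5 Zfp genes (2.84%, beside 3.5% of all genes), and the range between the lines was above 1 for 74 (42.0%, beside 40.2%). With 1 array per line there is no test of the spread itself. At the narrow end, among genes above background on all arrays, Zfp212 kept within 10.41 to 10.58 (SD 0.07), and R1 had 10.38. Of the other genes with bright probes, Zfp639 had 10.04 to 10.44, against 9.66 in R1, and Zfp131, which encodes a BTB zinc finger protein, had 10.01 to 10.77, against 10.06 in R1. Zfp219 varied more, with 9.46 (E3) to 10.46 (OG2.1), against 10.31 in R1 (SD 0.40).

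Zfp521 had the widest spread, with 9.60 in T9, 8.54 in OG2.1, 7.87 in OG2.2, 7.35 in C1a1, 6.85 in E5 and 6.41 in E3, against 5.95 in R1 (SD 1.17). It steers ESCs to a neural fate in mouse. Zfp423, its relative and a regulator of fat cell commitment, had 7.18 in OG2.1, 6.58 in OG2.2, 5.98 in E5, 5.93 in C1a1, 5.32 in E3 and 4.78 in T9, against 7.79 in R1 (SD 0.86). By these probes T9 was thus the highest line for Zfp521 and the lowest for Zfp423, and OG2.1 and OG2.2 came above E3, E5 and C1a1 for both genes. Zfp423 was above background in 4 of 6 EpiSC lines, T9 and E3 not being among them. A second probe of Zfp423 also had OG2.1 highest (6.46) and T9 lowest (4.50), but C1a1 (5.92) came above OG2.2 (5.82). That probe was above background in 3 of 6 EpiSC lines. The mean differences of Zfp521 and Zfp423 from R1, 1.82 and -1.83, were not called (adjusted p = 0.283 and 0.151 by limma), and Zfp423 was called without the OG2 lines (-2.29, adjusted p = 0.0366, with 0.0366 to 0.255 over the alternatives).

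Zfp467, which favours fat over bone formation in mouse marrow stroma, had 8.39 in E5 and 8.27 in E3, 7.04 in T9, 6.80 in C1a1, 6.04 in OG2.1 and 5.52 in OG2.2, against 5.0 in R1, not above background there (SD 1.16). E3 and E5 were more than a unit above every other line, and the OG2 lines were nearest to R1. Zfp467 was not above background in OG2.2 either, so the nearness of OG2.2 to R1 and part of the SD rest on levels below background. Zfp365, which encodes the Disc1-binding protein DBZ, had 9.67 in OG2.1, 9.92 in OG2.2, 8.65 in E3, 9.04 in E5 and 8.65 in T9 but 6.83 in C1a1, close to the 6.29 of R1 (SD 1.10). Its difference from R1 was 2.50 (SE 0.95, adjusted p = 0.124 by limma), and without C1a1 it was 2.90 and called (adjusted p = 0.0145, with 0.0145 to 0.219 over the alternatives).

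Zfp367, Zfp213 and Zfp738 shared high levels in both OG2 lines. Zfp367, known for binding a globin promoter in human erythroid cells, had 7.52 and 8.04 in OG2.1 and OG2.2 and 5.44 to 6.98 in the other 4, against 6.36 in R1. A second probe of Zfp367 spread less (SD 0.40, against 1.09). It had 5.60 and 6.28 in OG2.1 and OG2.2 and 5.21 to 5.46 in the other 4. It was above background in 2 of 6 EpiSC lines, and R1, at 6.51, lay above all of them. Zfp213 had 8.18 and 7.53 in the OG2 lines and 5.62 to 7.06 in the other 4, against 7.22 in R1. Zfp738 had 6.41 and 6.49 in the OG2 lines and 4.50 to 5.10 in the other 4, against 4.48 in R1, and was above background in the OG2 lines alone. These 3 were picked from the 10 largest SDs with their values in view. Both OG2 lines lay above all of the other 4 in each of them, as they did in 29 Zfp genes (16.5%), beside 9.19% of all genes, with no test made.

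**Figure D3:**
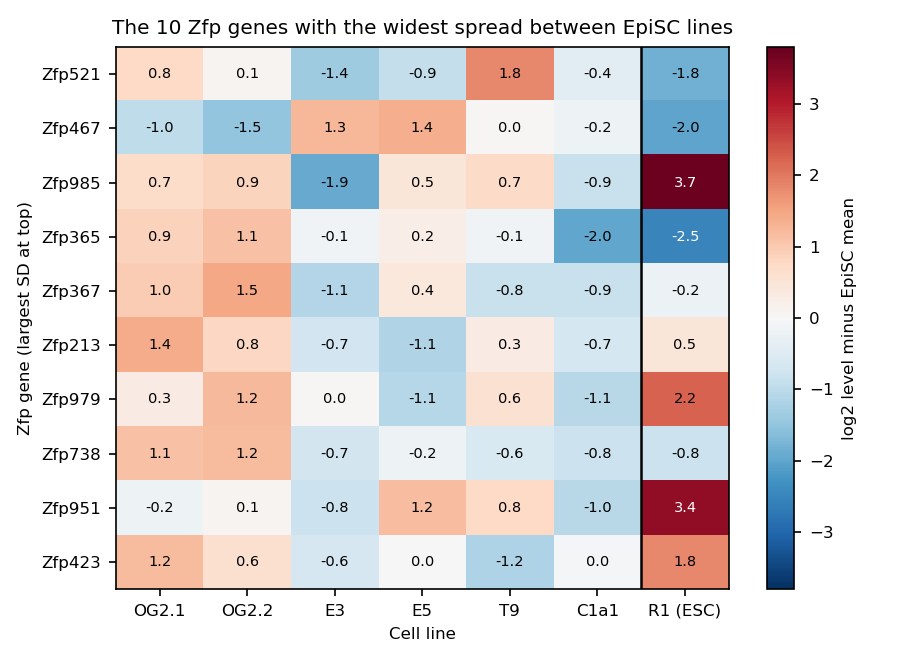
Level of the 10 Zfp genes with the largest SD over the EpiSC lines, as log2 level minus the EpiSC mean, by line, with R1 to the right of the black rule; red is above the EpiSC mean and blue below. T9 stands out for Zfp521, E3 and E5 for Zfp467, C1a1 for Zfp365, and both OG2 lines for Zfp367, Zfp213 and Zfp738.

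The OG2 lines, which share a name, were tested against the other 4 EpiSC lines. Limma called 0 Zfp genes after adjustment, beside 0.076% of all genes (7 in all), while 24 (13.6%) had an unadjusted p under 0.05, beside 9.35% of all genes. Of these 24, 15 were higher and 9 lower in the OG2 lines, a split that was not counted over all genes. The smallest p was that of Zfp738, which averaged 6.45 in the OG2 lines and 4.73 in the other 4. It had been kept through the OG2 arrays alone and was below background in the other 4, so it is given as at least 1.87-fold higher in the OG2 lines (adjusted p = 0.0797). Zfp367 differed by 1.82 (SE 0.44, adjusted p = 0.285), Zfp213 by 1.65 (SE 0.41, adjusted p = 0.288) and Zfp467 by -1.84 (SE 0.50, adjusted p = 0.332). Zfp467 was not above background in OG2.2. Zfp296 had means of 6.12 in the OG2 lines and 7.13 in the other 4, a difference of -1.01 (SE 0.21, adjusted p = 0.218), so the OG2 lines lay further from R1 for this gene than the other 4 did, with no call after adjustment.

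Each line was also set against the mean of the other 5. Limma called 0 Zfp genes in every line after adjustment, beside 4 of all genes in OG2.1 (0.0434%), 0 in OG2.2, 6 in E3 (0.0651%), 0 in E5, 1 in T9 (0.0109%) and 6 in C1a1 (0.0651%). At an unadjusted p under 0.05 there were 9 Zfp genes in OG2.1, 9 in OG2.2, 12 in E3, 9 in E5, 2 in T9 and 14 in C1a1. As shares of the Zfp genes these were 5.11%, 5.11%, 6.82%, 5.11%, 1.14% and 7.95%, beside 5.98%, 5.29%, 6.23%, 8.1%, 2.18% and 6.07% of all genes. A difference of at least 1, taken with no test, was found for 14 Zfp genes in C1a1 (7.95%, beside 5.23% of all genes), all of them lower there, led by Zfp365 (-2.36), Zfp160 (-1.35) and Zfp157 (-1.31). There were 11 in OG2.1 (6.25%, beside 6.41%), 10 in OG2.2 (5.68%, beside 5.03%) and 8 in E3 (4.55%, beside 4.87%). In E5 there were 12 (6.82%, beside 7.38%), 8 higher and 4 lower, and in T9 4 (2.27%, beside 3.09%), led by Zfp521 (2.19). Some of the 14 genes lower in C1a1 were not above background there. The split by direction was not counted over all genes for any line, so these splits have no share to stand beside.

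C1a1 was also the line in which Zfp genes most often had their lowest level. It was the lowest of the 6 EpiSC lines for 57 Zfp genes (32.4%), beside 17.9% of all genes, and the highest for 14 (7.95%), beside 17.8%. Some of these 57 genes, such as Zfp560, Zfp93 and Zfp738, were not above background in C1a1. Their rank rests on background levels, and how many such genes there were was not counted. E3 and E5 were each the highest for 44 (25%), beside 19.2% and 20% of all genes. C1a1 had more probes above background (11574 of 25697) than any other array. These shares are descriptions, and no test was made of them.

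**Figure D4:**
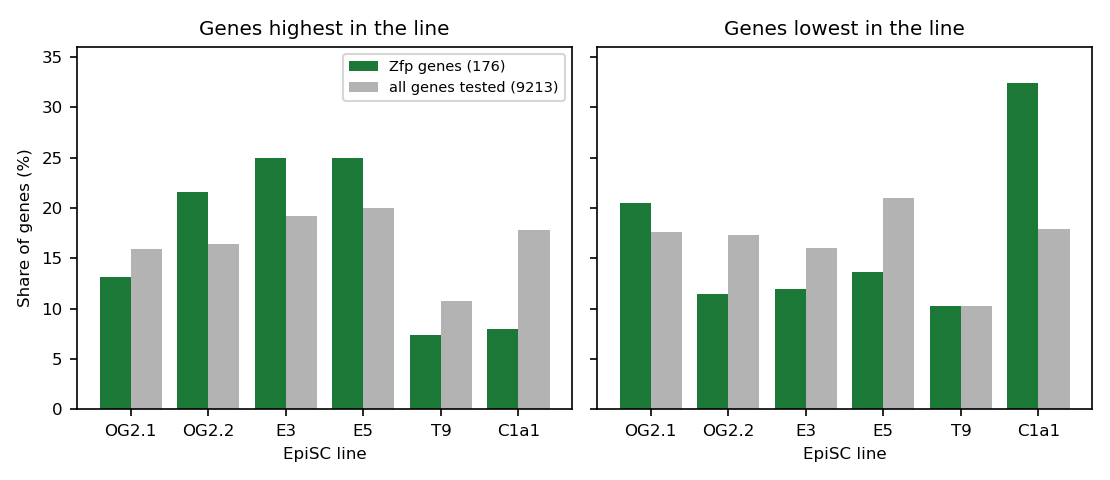
Share of the 176 Zfp genes (green) and of all 9213 genes tested (grey), in percent, that had their highest level (left panel) or lowest level (right panel) in each of the 6 EpiSC lines. C1a1 holds the lowest level of 32.4% of Zfp genes, beside 17.9% of all genes, with levels below background included.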

How the data were processed

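RNA of 7 lines was labelled with biotin and hybridized in 1 colour. The deposited intensity values are bead-summarised probe signals from BeadStudio 3.2, per the submitters' processing notes, neither background corrected nor normalized, as the values show. Each probe's detection p-value, also deposited, compares it with negative control beads of its array, per the file headers. The authors also deposited log2 values, which were checked against the signals (r of each array's deviations with its own column at least 0.82, with others at most 0.233) and used as an alternative. The notes also name lumi and RMA, with no settings.

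Signals were normalized with neqc of limma 3.58.1 (background fitted from the detection p-values, offset of 16, quantile normalization, log2). Probes above background (detection p under 0.01) on any array were kept, 12626 of them with 1 symbol, and the brightest represented its gene. Of 25697 probes, 23978 had 1 symbol and 1719 had none listed. Across all 9213 genes limma gave 2-sided p-values, adjusted by Benjamini-Hochberg, for EpiSC minus R1 with 5 residual degrees of freedom and the line comparisons with 4. Precision is limited by the number of arrays. Where a gene or probe was not above background on 1 side, a fold is a lower bound against the lowest signal above background on each array, or the gene's own if higher.

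The genes, lists and tests were chosen with earlier results of these data known. The text names the 12 largest called rises and falls, the 10 largest SDs, 5 genes with bright probes and listed genes. Zfp282, Zfp512, Zfp251, Zfp286, Zfp933, Zfp160, Zfp157, Zfp606, Zfp398, Zfp532 and Rex2 are outside the rule and were added with their values in view. The lists reached Zbtb18, Zpr1 and Zfp385a through older symbols, which are not counted among the 176 genes. Promoters came from RefSeq (GRCm38.p6), for 141 of the 176 genes, at the first listed start. All promoter counts leave out chromosome 18, which holds Zfp608, Zfp24 and Zfp521. Protein sequences were not used here, so the planned count of KRAB domains and fingers was not made.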

Additional observations from a re-analysis of the deposited data

Results flagged for a closer look

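Among 61 genes named by rule, the level of 1 gene in 1 EpiSC line lay far from the other lines. Zfp459 in E3 had 5.28, the highest of the 6 lines, while the other 5 had 4.69 to 4.89, and the gap was 0.657 of the whole range, past Dixon's limit for 6 samples. Zfp459 was above background in R1 alone, so the level in E3 was also not above background. Chance flags about 1 in 20 groups by this measure.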

How the results depend on the processing

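The EpiSC and R1 comparison was repeated under 15 alternatives. Of the 30 called Zfp genes, 15 kept the call under all of them, 5 lost it under 1 to 3, 10 lost it under more than 3, and 0 changed direction. The count of lower calls was 9 with the deposited log2 values, where it was 655 over all genes (747 in the main setting). The count of higher calls was 10 without background correction (551 over all genes) and 8 without OG2.1 and OG2.2 (514 over all genes). Leaving out 1 line at a time gave 10 (without OG2.1, 591 over all genes) to 18 (without C1a1, 584 over all genes). The share of higher among called Zfp genes was 53.3%, beside 654 of 1401 called over all genes. It was 64% with the deposited values (16 of 25, beside 705 of 1360 over all genes). Without background correction it was 40% (10 of 25, beside 551 of 1335), and without both OG2 lines 38.1% (8 of 21, beside 514 of 1133). The median SD over the EpiSC lines was 0.436 with the deposited values (0.403 over all genes) and 0.19 without background correction (0.204 over all genes). It was 0.27 without a detection filter (0.22 over all genes) and 0.316 with a detection p under 0.05 (0.307 over all genes). On leaving out 1 line it was 0.323 to 0.357 for the Zfp genes.

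Of 28 named genes that were not called, 6 changed sign. Zfp609 was 0.00671 with median scaling, 0.105 without both OG2 lines and -0.133 to 0.126 (the highest without OG2.1) on leaving out 1 line. Zfp367 was -0.395 with the mean of its probes or without both OG2 lines, and -0.0839 (without OG2.2) to 0.435 on leaving out 1 line. With the mean of probes Zfp330 was 1.61 and Zfp326 -0.298. Leaving out 1 line gave -0.25 to 0.00752 for Zfp148 and -0.0218 to 0.442 for Zfp36, with the sign turned without E3. The cause was not tested. No setting that was run gave a Zfp call between EpiSC lines. A slide block was not run, as the headers name no slide. No paired analysis was possible because the groups share only 1 replicate number, given in accession order.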

Other observations

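Several Zfp genes had a second probe with other values. Of the 176 genes, 37 had more than 1 kept probe. Zfp330, which encodes a nucleolar protein, had 9.86 to 10.36 in the EpiSC lines and 10.49 in R1 by its brightest probe. Its other probe had 9.63, 10.07, 9.83 and 10.12 in OG2.1, OG2.2, E3 and E5 but 4.55 in T9 and 4.60 in C1a1, against 4.53 in R1, and was above background in those 4 lines alone. The levels of the first probe therefore lay close together on all 7 arrays while those of the second fell into 2 well separated sets. For Zfp326, an RNA polymerase elongation factor subunit, the brightest probe gave a difference of 0.47 and the other 2 gave -0.77 and -0.59, none of them called. Second probes of Zfp532, Zfp398 and Zfp606 were called where the brightest probe was not. That of Zfp532 had a difference of -1.41 (adjusted p = 0.0363 by limma) and was above background on all arrays. That of Zfp398 was above background in R1 and 0 of 6 EpiSC lines, at least 1.15-fold lower in the EpiSC lines (adjusted p = 0.0424), so this p rests on EpiSC levels below background. That of Zfp606 lay below background in R1 but not in any EpiSC line, and was at least 1.09-fold higher there (adjusted p = 0.0312). Of the 4 other probes of called genes, 3 were called in the same direction and 1, of Zfp787, had the same sign with an adjusted p of 0.168.

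Chromosome 7 held 47 of the 176 genes, 5 of them higher and 5 lower in the EpiSC lines. Over all genes tested, on any chromosome, 7.1% were higher and 8.11% lower, and the other genes of chromosome 7 were not counted apart. Of 21 runs of directly neighbouring Zfp genes, which took in 52 genes, 0 held 2 or more called genes, 5 held 1, and the members of 12 shared a sign. Runs of other genes were not counted, so whether Zfp neighbours agree more than others was not tested. The number of CpG in the 300 bases of promoter had a median of 16 over 141 Zfp genes and 21 over all 7492 genes with a promoter, and was 19 for the 11 Zfp genes higher in the EpiSC lines (beside 20 for all genes called higher), 8.5 for the 12 lower ones (beside 17 for all genes called lower) and 16 for the rest. Motifs were counted on either strand. GGGCGG, the box read by Sp1, was in 46.8% of Zfp promoters and 65.5% of all, in 81.8% of those of higher Zfp genes (beside 66.7% of all genes called higher) and in 25% of those of lower ones (beside 58.1% of all genes called lower). GGAAGT, a core read by Ets factors, was in 41.1% of Zfp promoters and 28.3% of all, in 36.4% of those of higher Zfp genes (beside 20%) and in 58.3% of those of lower ones (beside 28.8%). CACGTG was in 9.09% of those of higher Zfp genes (beside 7.65%) and in 33.3% of those of lower ones (beside 12.0%), namely Zfp296, Zfp459, Zfp619 and Zfp819. AAGGTCA, read by Esrrb, was in 2.84% of Zfp promoters and 3.06% of all, and the octamer ATTTGCAT in 3.55% and 1.48%. With 11 and 12 promoters, 1 promoter more or fewer moves these shares widely, and no test was made of them. The 12 include those of Zfp985 and Zfp987, which were 93.7% identical and both hold GGAAGT, so nearly the same sequence was counted more than once.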
